A study of Mus musculus with 8 samples.

Results

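Fndc1 and Arhgap10 were chosen because they carried the strongest losses of R-loop signal in muscle stem cells (MuSCs) that lack Kmt5b. Their members were all union peaks that the authors' table gave to either gene by symbol, with the union peaks within 200 kb of them as flanks. These were 28 of 28265 union peaks, 7 in Fndc1 and 21 in Arhgap10. The genes were picked from the comparison of genotypes itself, so their values in that comparison are a description and carry no p. The label of strongest losses describes single peaks of both genes, and the whole gene only for Fndc1. It was drawn from these same values, so the ranks given here restate the choice and do not test it. The summed score of Fndc1 had the lowest ratio of Kmt5b sKO to Ctrl among 5208 autosomal genes with a mean summed score over 100. Arhgap10 ranked at 135, although its last peak had the lowest log2 fold change of all 25815 tested peaks. The next lowest Arhgap10 peaks ranked at 35, 102 and 253.

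Ctrl cells were labelled Pax7CreERT/Suv4-20h1WT and Kmt5b sKO cells Pax7CreERT/Suv4-20h1KO, where Suv4-20h1 is an older name of Kmt5b, whose enzyme methylates lysine 20 of histone H4. Both genotypes carried the tamoxifen-inducible Cre in Pax7, which acts in cells that express this MuSC transcription factor, and adult mice of both were given tamoxifen. Each genotype had 3 libraries, made with the S9.6 antibody from purified MuSCs grown in culture, and the study calls these biological replicates. This antibody pulls down RNA:DNA hybrids. The authors deposited 1 score per peak and library, which is the signal summed over the peak and scaled by spike-in reads of Drosophila cells.

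An R-loop forms when a transcript pairs with its DNA template and displaces the other strand. R-loops form over transcribed DNA, and a displaced strand rich in G favours them. They are removed by RNase H and by helicases, and R-loops that persist can stall replication forks. Fndc1 encodes a large protein with fibronectin type III domains that was described as an activator of G-protein signalling. Arhgap10 encodes a member of the GRAF family, in which a BAR, a PH and an SH3 domain surround a RhoGAP domain that speeds up GTP hydrolysis by RhoA and Cdc42. The protein binds the focal adhesion kinase Ptk2 and the kinase Pak2. An R-loop score measures hybrids and is not a measure of the RNA or protein of either gene.

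The scores of all autosomal peaks added up to 3866325, 4669752 and 3848297 in the Ctrl libraries and to 4639231, 4867664 and 4720251 in the Kmt5b sKO libraries, in the order of replicates 1 to 3, which is kept for all triplets of values. The table held scores and not the reads behind each. The study lists mapped reads per library, which were fewer in every Kmt5b sKO library than in any Ctrl library; they were not used here, and the part of depth in the scores was not tested. The single peak in Kmt5b had scores of 412, 658 and 420 in Ctrl and 440, 449 and 484 in Kmt5b sKO, and a hybrid signal does not test the deletion. A peak was called when the limma adjusted p, by Benjamini-Hochberg over all tested peaks, was under 0.1 and the fold change over 1.5. Most called peaks rose in Kmt5b sKO, and this balance depended on the scale. By the deposited scale 228 peaks (0.883%) were called lower and 8484 (32.9%) higher, with a median log2 fold change of 0.35. After each library was centred on its median peak, 3073 were lower and 2647 higher, and after quantile normalization 1988 and 2071.

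4 stretches of the peaks are shown to let the base composition of the displaced strand be read. Each is the 300-base window of its peak with the largest excess of G over C on the coding strand, from RefSeq GRCm38, written 5′ to 3′ on that strand, which is the minus strand in both genes. Capitals mark runs of 4 or more G. The first is from the Fndc1 peak with the largest fall, at chr17:7817301-7817600, and the second from the Arhgap10 peak with the largest fall, at chr8:77261151-77261450. The others, at chr17:7799951-7800250 and chr8:77401851-77402150, are from the widest Fndc1 peak and from a wide Arhgap10 peak in the middle of the gene, and were added after the values were seen. None of the 4 windows overlaps an annotated exon.
Fndc1 peak 2: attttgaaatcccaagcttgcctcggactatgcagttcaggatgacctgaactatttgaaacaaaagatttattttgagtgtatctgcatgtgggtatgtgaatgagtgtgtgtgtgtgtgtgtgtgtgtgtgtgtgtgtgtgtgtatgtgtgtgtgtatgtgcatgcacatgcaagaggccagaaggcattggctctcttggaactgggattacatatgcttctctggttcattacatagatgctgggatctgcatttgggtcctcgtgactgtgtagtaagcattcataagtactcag
Arhgap10 peak 21: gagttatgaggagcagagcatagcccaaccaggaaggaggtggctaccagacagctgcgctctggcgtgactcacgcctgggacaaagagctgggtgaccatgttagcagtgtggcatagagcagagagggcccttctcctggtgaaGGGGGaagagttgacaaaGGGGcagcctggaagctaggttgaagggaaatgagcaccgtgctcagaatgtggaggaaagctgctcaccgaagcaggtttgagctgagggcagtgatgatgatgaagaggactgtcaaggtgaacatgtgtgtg
Fndc1 peak 4: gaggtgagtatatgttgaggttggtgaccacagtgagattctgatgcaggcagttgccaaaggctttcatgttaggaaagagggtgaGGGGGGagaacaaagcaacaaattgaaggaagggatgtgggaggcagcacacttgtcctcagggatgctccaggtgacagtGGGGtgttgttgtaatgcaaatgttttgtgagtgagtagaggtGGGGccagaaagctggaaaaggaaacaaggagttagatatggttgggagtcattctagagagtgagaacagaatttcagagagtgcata
Arhgap10 peak 11: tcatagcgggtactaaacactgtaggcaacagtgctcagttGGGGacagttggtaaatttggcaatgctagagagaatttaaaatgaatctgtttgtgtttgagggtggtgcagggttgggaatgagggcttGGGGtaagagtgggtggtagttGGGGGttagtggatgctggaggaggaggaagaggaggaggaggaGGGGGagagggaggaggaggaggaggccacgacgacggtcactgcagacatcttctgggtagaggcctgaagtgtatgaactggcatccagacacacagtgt
The Fndc1 peak 2 window held 42 more G than C, no GGGG, and a long repeat of TG within its 133 masked bases. The other windows held 56, 74 and 86 more G than C, with 2, 3 and 4 runs of G. Of 21756 tested peaks with a gene, 73.5% held GGGG in the window chosen in the same way, and the median excess of G was 46. GGGG was searched on the coding strand, where neighbouring matches can overlap within a longer run. In windows at the peak centre it occurred in 49.7% on the coding strand and in 43.5% on the other strand. Fndc1 peak 4 and Arhgap10 peak 11 exceeded 88.0% and 93.6% of these peaks in their excess of G. Arhgap10 peak 21 exceeded 67.1% and Fndc1 peak 2 exceeded 41.2%, so the peaks with the largest falls were near the middle of the distribution. A wider peak offers more windows to choose from. Fndc1 peak 4 and Arhgap10 peak 11 are 16600 and 11400 bp wide, beside a median of 2800 bp. Over the whole peak, their excess of G over C divided by the sum of both was at percentiles 49.2 and 61.5.

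Fndc1 (ENSMUSG00000071984) lies on the minus strand at chr17:7738569-7827302 (GRCm38) and is 88.7 kb long with 24 merged exons. Its 7 peaks covered 50.5% of the gene but only 12.2% of the bases of its merged exons, which include those of a retained-intron transcript. Below, peaks are numbered from the gene's start, and their coordinates are those of the authors' table, which count from 0. Of the 7 peaks, 5 were called lower and 0 higher, beside 0.883% and 32.9% of all tested peaks, and all 7 log2 fold changes were below 0. The same 5 peaks had all 3 Ctrl libraries above all 3 Kmt5b sKO libraries, a separation seen in 3.81% of tested peaks. Fewer cells of a type and less hybrid per cell cannot be told apart in these bulk samples.

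On the deposited scale the called falls were the neighbouring peaks 2 to 6, centred 10.8 to 48.0 kb from the start. Peak 2, at chr17:7815000-7817999 in the first intron and centred 10.8 kb from the start, scored 69, 110 and 74 in Ctrl and 23, 21 and 48 in Kmt5b sKO. The groups did not overlap, and the mean in Kmt5b sKO was 36.4% of that in Ctrl. Its log2 fold change was −1.50 (SE 0.28), second lowest of all tested peaks. Peak 3, at chr17:7802600-7813799, scored 341, 573 and 382 in Ctrl and 196, 208 and 151 in Kmt5b sKO. Every Kmt5b sKO library was below the lowest Ctrl library, with a log2 fold change of −1.20 (SE 0.15). Peak 3 contains the second exon and, 22.3 kb from the gene's start, the annotated start of the transcript Fndc1-202, which runs on to the gene's end.

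Peak 4, at chr17:7785800-7802399, is the widest peak of the gene (16600 bp) and spans exons 3 to 5. It scored 435, 738 and 535 in Ctrl against 277, 204 and 243 in Kmt5b sKO, a log2 fold change of −1.21 (SE 0.15). The groups were again separate, and Kmt5b sKO kept 42.4% of the Ctrl mean. Peak 5, at chr17:7782000-7784999 over exons 6 and 7, scored 112, 150 and 110 in Ctrl and 73, 75 and 77 in Kmt5b sKO. The Kmt5b sKO libraries lay close together below all Ctrl libraries, and the log2 fold change of −0.70 (SE 0.20) was the smallest of the called falls. Peak 5 had the highest density of the gene, 41.3 per kb in Ctrl and 25.0 per kb in Kmt5b sKO. Peak 6, at chr17:7777200-7781399 over exons 8 and 9, scored 85, 148 and 114 in Ctrl and 71, 39 and 48 in Kmt5b sKO, a log2 fold change of −1.13 (SE 0.22).

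The outermost peaks were not called on the deposited scale. With median centring or quantile normalization all 7 Fndc1 peaks were called lower, as were 3073 and 1988 of all 25815 tested peaks. Peaks 1 and 7 had log2 fold changes of −0.82 and −0.89 with median centring. Peak 1, at chr17:7823600-7826199 in the first intron and 2.4 kb from the start, scored 55, 88 and 58 in Ctrl and 59, 41 and 54 in Kmt5b sKO, a log2 fold change of −0.36 (SE 0.25). Peak 7, at chr17:7748400-7752599, lies 76.8 kb from the start and scored 62, 130 and 90 in Ctrl and 96, 60 and 51 in Kmt5b sKO, a log2 fold change of −0.43 (SE 0.22). In both peaks the groups overlapped. No union peak lay between peaks 6 and 7, a stretch that holds the 2 largest merged exons, of 3779 and 2415 bp. The larger one begins at the annotated start of Fndc1-203, a transcript typed as retained intron. Summed over its 7 peaks, Fndc1 scored 1159, 1937 and 1363 in Ctrl and 795, 648 and 672 in Kmt5b sKO. The groups were separate and Kmt5b sKO kept 47.4% of the Ctrl mean (1486 ± 403 against 705 ± 78.9, SD, n = 3). The 5 called peaks held 84.8% of the peak length and 94.9% of the difference.

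**Figure D1:**
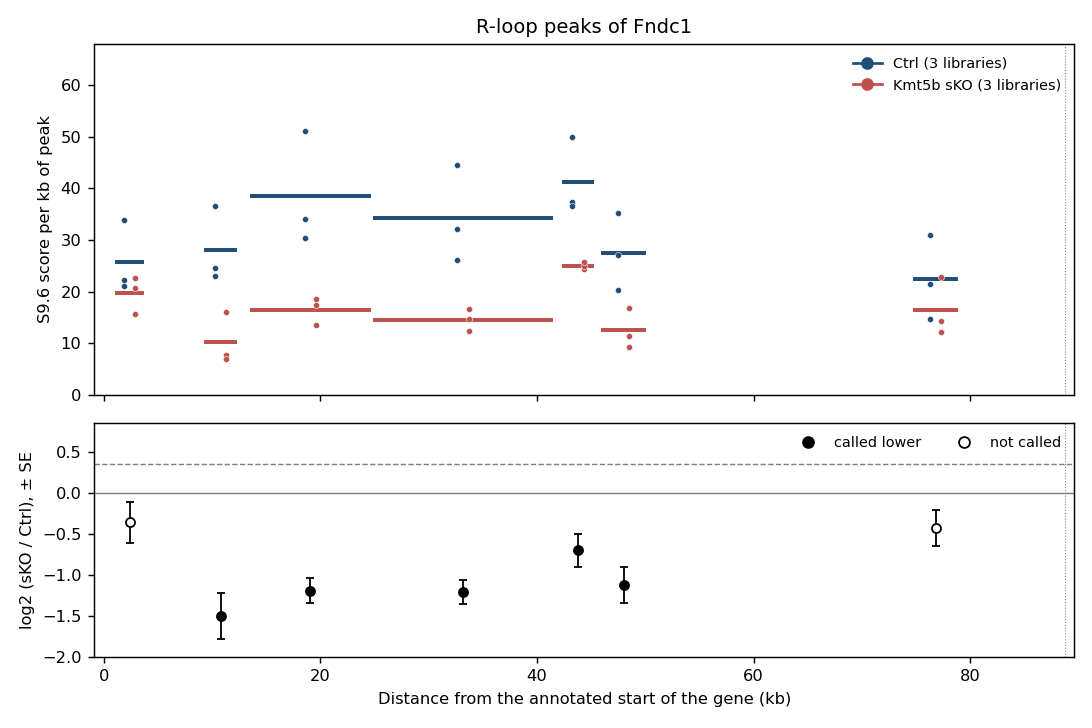
The upper panel shows the S9.6 score per kb of each of the 7 Fndc1 peaks against distance from the annotated gene start in kb; lines span each peak at the group mean, and points are the 3 libraries of Ctrl and of Kmt5b sKO, moved slightly sideways. The lower panel shows log2 fold changes with SE, filled where called lower, with 0 as a solid line, the median of all tested peaks (0.35) as a dashed line and the gene's end dotted. The 5 filled points between 10.8 and 48.0 kb lie between −1.50 and −0.70.

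No union peak lay within 200 kb of the Fndc1 peaks on either side. Of 7 annotated genes there, 2 are protein-coding: Tagap, which encodes a RhoGAP of activated T cells, and Rsph3a, which encodes a radial spoke protein of cilia. Neither overlapped a union peak. The nearest peaks belonged to Rps6ka2, a ribosomal S6 kinase gene 450 kb downstream (log2 fold change 0.12), and Fgfr1op, a centrosomal protein gene 349 kb upstream (−0.12). Neither was called, and the scores around Fndc1 are those of its own peaks alone.

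Arhgap10 (ENSMUSG00000037148) lies on the minus strand at chr8:77250366-77517953 and is 268 kb long with 23 merged exons. Its 21 peaks covered 54.4% of the gene. One of them, peak 19 at chr8:77294200-77295199, was below the level minimum of a mean score of 30 and was not tested. Of the 20 tested peaks 4 were called lower and 0 higher, again beside 0.883% and 32.9% of all tested peaks, and 16 were not called. All 20 fold changes were below the median of all tested peaks, yet 8 of them were above 0 on the deposited scale. With every library scaled to the same total 1 was above 0, and with median centring 0 were, when 9 peaks were called lower. Median centring called 3073 of all 25815 tested peaks lower, against 228 on the deposited scale. In 5 peaks all Ctrl libraries exceeded all Kmt5b sKO libraries, and in 0 the reverse held, beside 3.81% and 41.5% of tested peaks. Peaks of higher score rose less often. With a mean score over 100, 1163 of 9424 peaks were called higher, and the median log2 fold change was 0.15. In that set were 10 Arhgap10 peaks, 5 of them with a fold change above 0.

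The largest fall was at the 3′ end. Peak 21, at chr8:77255000-77263599 over exons 21 and 22 and 259 kb from the start, scored 283, 329 and 230 in Ctrl and 85, 90 and 117 in Kmt5b sKO. The lowest Ctrl library was above the highest Kmt5b sKO library by a wide margin, and Kmt5b sKO kept 34.7% of the Ctrl mean. The log2 fold change was −1.52 (SE 0.17), and the density fell from 32.6 to 11.3 per kb.

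Falls were also called in the middle of the gene. Peak 11, at chr8:77395600-77406999 within intron 10, scored 507, 703 and 469 in Ctrl and 272, 285 and 342 in Kmt5b sKO, a log2 fold change of −0.88 (SE 0.15). It had the highest Ctrl density of all peaks of either gene, 49.1 per kb, and was at 26.3 per kb in Kmt5b sKO. Peak 13, at chr8:77355400-77381799 over exons 14 and 15, scored 1009, 1346 and 1094 in Ctrl and 789, 646 and 652 in Kmt5b sKO, a log2 fold change of −0.72 (SE 0.13). Both peaks had separate groups. Peak 13 is 26400 bp wide and lost the most score of any Arhgap10 peak, from a mean of 1150 to 696. Peak 16, at chr8:77312800-77315199 in intron 18, scored 45, 79 and 67 in Ctrl and 46, 38 and 39 in Kmt5b sKO. Its groups overlapped, and its log2 fold change of −0.59 (SE 0.27) was just past the fold of 1.5. It lost its call without Ctrl replicate 2 or 3 or without Kmt5b sKO replicate 2 or 3 (log2 fold changes of −0.42, −0.54, −0.54 and −0.56).

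The remaining peaks ranged from −0.53 to 0.26. The widest of all, peak 5 at chr8:77466000-77493599 in the first intron (27600 bp), scored 886, 1116 and 918 in Ctrl and 817, 875 and 748 in Kmt5b sKO, a log2 fold change of −0.25 (SE 0.13). Its groups were separate by a small margin, and the fold was under 1.5. Peaks 10 and 12, on either side of the called peak 11, had log2 fold changes of −0.48 (SE 0.21) and −0.53 (SE 0.27), and neither was called. Peaks 14 and 15, at chr8:77334000-77342399 and chr8:77324400-77333799 in intron 18, had log2 fold changes of 0.09 and 0.10 with overlapping groups. None of peaks 1 to 6, all in the first intron, was called. Peaks 7, 8 and 9, between 71.2 and 96.3 kb from the start, had log2 fold changes of 0.09 (SE 0.21), 0.26 (SE 0.20) and −0.12 (SE 0.14). Peaks 17, 18 and 20, at 211, 220 and 248 kb, had log2 fold changes of 0.14 (SE 0.20), −0.15 (SE 0.37) and −0.29 (SE 0.26), and all 6 had overlapping groups. Peaks 1, 2, 3, 4 and 6 were at 0.16 (SE 0.30), 0.09 (SE 0.16), 0.04 (SE 0.28), −0.06 (SE 0.26) and −0.35 (SE 0.28), again with overlapping groups.

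Grouped by distance from the start, the falls of Arhgap10 lay in separate stretches. The 9 peaks of the first 100 kb summed to 1803, 2420 and 1875 in Ctrl and 1831, 1922 and 1812 in Kmt5b sKO. These groups overlapped, and Kmt5b sKO was at 91.3% of the Ctrl mean. The 4 peaks from 100 to 150 kb summed to 1645, 2238 and 1732 in Ctrl and 1192, 1031 and 1104 in Kmt5b sKO, or 59.3% of the Ctrl mean, and the groups were separate. The 7 peaks from 150 to 250 kb summed to 777, 1044 and 866 in Ctrl and 975, 891 and 829 in Kmt5b sKO, with equal means (896 ± 136 and 898 ± 73.3, SD, n = 3). Peak 21 alone lay beyond 250 kb. The edges of these stretches were set after the values were seen. Over all 21 peaks the gene scored 4508, 6031 and 4703 in Ctrl and 4083, 3934 and 3862 in Kmt5b sKO, which is 77.9% of the Ctrl mean. The groups were separate, the 4 called peaks held 33.5% of the peak length and 82.1% of the difference, and the other 17 peaks kept 93.4% of the Ctrl mean.

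**Figure D2:**
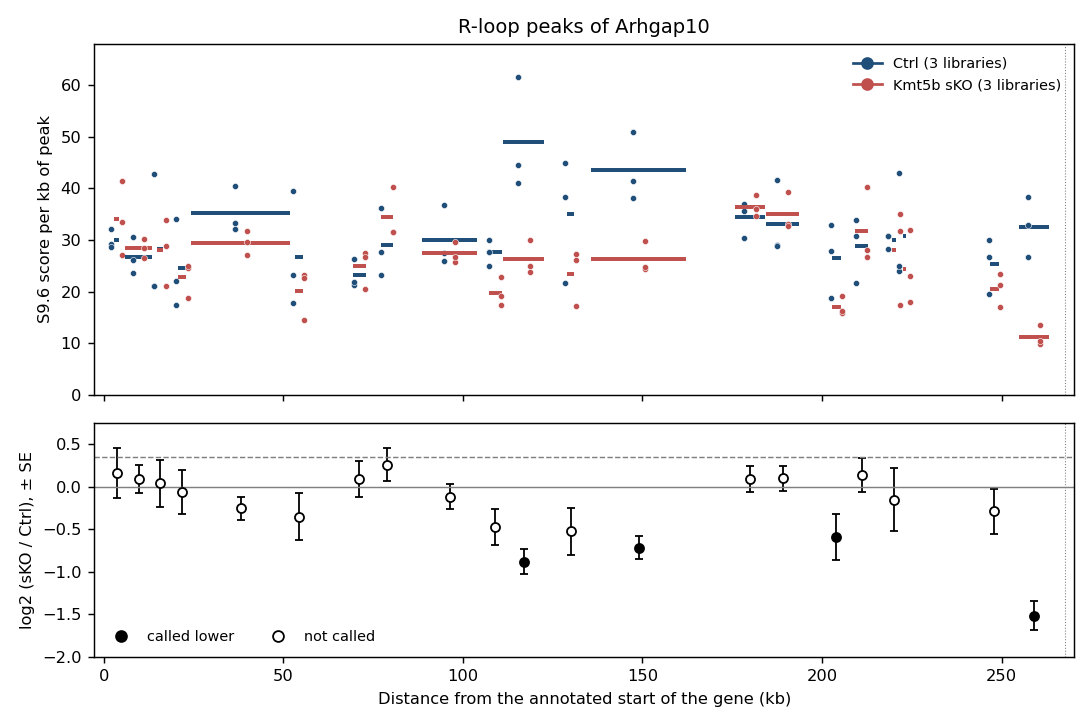
Scores per kb (upper panel) and log2 fold changes with SE (lower panel) of the Arhgap10 peaks against distance from the annotated gene start in kb, drawn as for Fndc1; the untested peak 19 has no point in the lower panel. The filled points, called lower, are at 117, 149, 204 and 259 kb, and the points before 100 kb lie around 0.

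**Figure D3:**
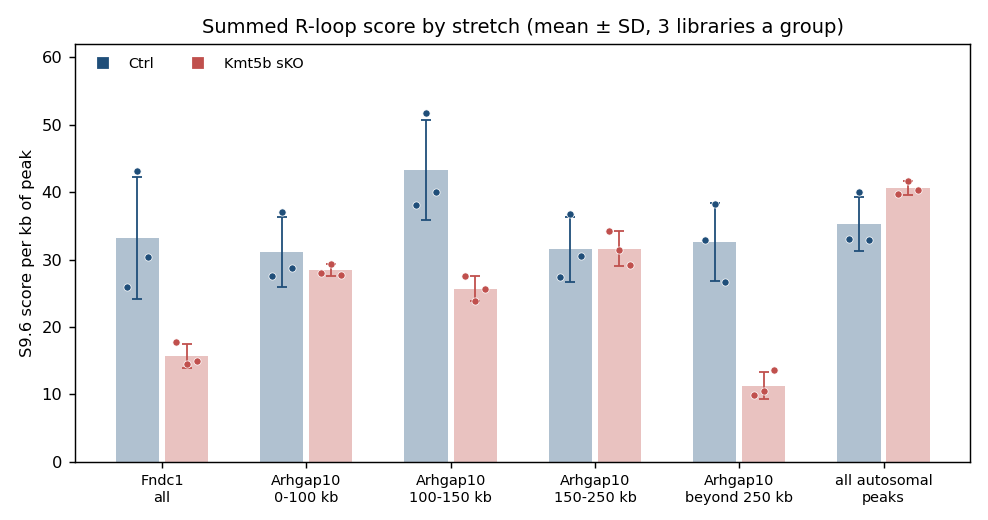
Summed S9.6 score per kb of peak for Fndc1, 4 stretches of Arhgap10 by distance from its start, and all autosomal peaks; bars are means, error bars SD and points the 3 libraries of each genotype. Kmt5b sKO is lower with separate groups in Fndc1 and in the Arhgap10 stretches of 100 to 150 kb and beyond 250 kb.

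Transcripts of 2 genes on the opposite strand overlap Arhgap10 peaks, and the deposited scores are not split by strand. 4933421D24Rik and Gm45285, both annotated as antisense, overlap 2 union peaks each. The called peak 16 and peak 17 are at the former (log2 fold changes −0.59 and 0.14), and peaks 14 and 15 are at the latter.

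Of the 5 flanking peaks of Arhgap10, 0 were called lower and 1 was called higher, beside 0.883% and 32.9% of all tested peaks. With 5 peaks these counts cannot be told from those shares. Arhgap10 ends tail to tail with Nr3c2, the gene of the mineralocorticoid receptor. The Nr3c2 peak at chr8:77236400-77254799 is 200 bp from peak 21, covers the last 4435 bp of Arhgap10, and scored 637, 892 and 634 in Ctrl and 483, 563 and 527 in Kmt5b sKO. Its groups were separate in the direction of peak 21, but its log2 fold change of −0.44 (SE 0.14) was under the fold of 1.5, and the table gave it to Nr3c2. On the upstream side, the 2 peaks of 0610038B21Rik, a noncoding gene of the other strand, scored 85, 93 and 75 in Ctrl against 80, 71 and 65 in Kmt5b sKO, and 49, 46 and 52 against 33, 44 and 69. Both pairs of groups overlapped, with log2 fold changes of −0.22 and −0.07. Prmt9, the gene of an arginine methyltransferase that acts on a splicing factor, had 2 peaks. The one at chr8:77559600-77560399 scored 20, 22 and 18 in Ctrl and 32, 60 and 67 in Kmt5b sKO, a called rise of 1.30 (SE 0.39) with separate groups. The other scored 33, 56 and 41 against 71, 51 and 43 and was not called (log2 fold change 0.34). Quantile normalization removed the call of the first (log2 fold change 0.68).

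Ctrl replicate 2 was the highest Ctrl library in all 7 Fndc1 peaks and in 18 of 21 Arhgap10 peaks, against 59.7% of all tested peaks. Its sum over Fndc1 was 1.67 times that of Ctrl replicate 1 and 1.42 times that of replicate 3, while its total over all autosomal peaks was 1.21 times either. Without it, 4 Fndc1 peaks and 3 Arhgap10 peaks were called lower, the log2 ratio of summed scores went from −1.08 to −0.84 in Fndc1 and from −0.36 to −0.22 in Arhgap10, and 82 peaks of the whole table were called lower. Peaks 2, 3, 4 and 6 of Fndc1 and peaks 11, 13 and 21 of Arhgap10 were called without it. The log2 summed scores of Fndc1 and Arhgap10 had a Pearson r of 0.962 across the 6 libraries, which share genotype and library scale.

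**Figure D4:**
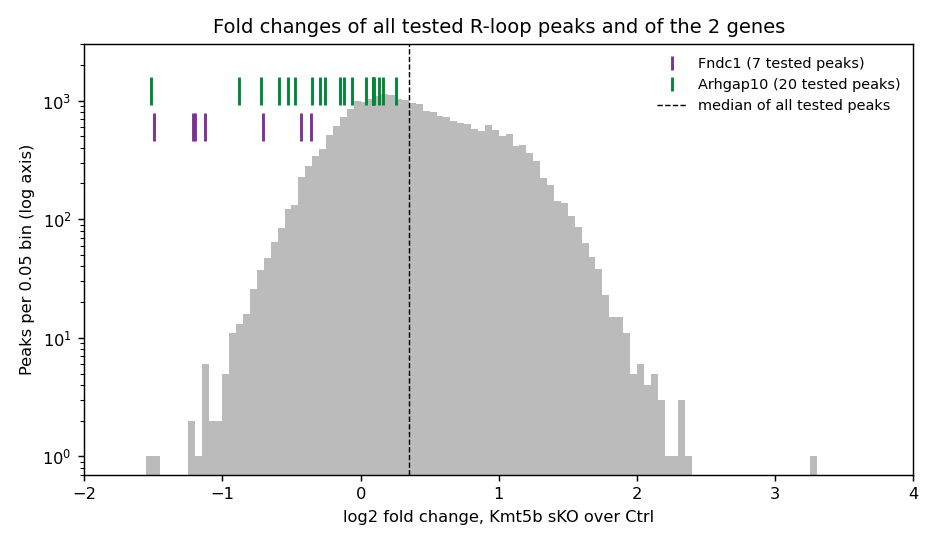
Histogram of log2 fold changes of all 25815 tested peaks, in bins of 0.05 with a log axis for the number of peaks; ticks above mark the 7 Fndc1 and 20 Arhgap10 tested peaks and the dashed line the overall median of 0.35. The Fndc1 ticks run from −1.50 to −0.36 and the Arhgap10 ticks from −1.52 to 0.26.

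The member peaks shared a base composition of the kind found in many gene peaks. Among called members the median share of G and C was 45.0%, and 45.2% among members not called, beside a median of 42.9% over tested peaks with a gene. The excess of G over C on the coding strand, divided by their sum, had medians of 0.0562 and 0.0643, beside 0.0473. Called members were longer (median 8600 against 3500 bp) and denser in Ctrl (34.3 against 28.6 per kb), where the median gene peak had 29.1 per kb. A lower call needs Ctrl above Kmt5b sKO, so a higher Ctrl density is partly built into the call. Longer peaks have higher scores and smaller standard errors, which makes a call easier. Of the 9 called members 6 overlapped an exon, and of the 18 others 4 did. A longer peak has more room for an exon, and the share over all peaks was not counted. The annotated starts of Arhgap10, and those at the first exon of Fndc1, lay in no union peak.

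The genes with the profile most like that of each member over the 6 libraries were ranked by Pearson r of log2 summed scores, among 5207 genes. For Fndc1 they were Dll1, a Notch ligand gene (r = 0.998), Fbxw17 (0.983), Eya4 (0.978), Ttn, the gene of the sarcomere protein titin (0.977), and Glce, which acts in heparan sulfate synthesis (0.975). For Arhgap10 they were Ccdc88c (0.997), Dipk2a (0.993), Chchd3 (0.993), Grb10, an adaptor of insulin receptor signalling (0.991), and Prrx1, a homeobox gene of mesenchyme (0.991). The size of the fall differed among them: Dll1 was at 81.8% of the Ctrl mean and Ttn at 60.5%, where Fndc1 was at 47.4%. These likenesses rest on 6 points in 2 genotypes.

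The relatives and partners of the 2 genes are to be read beside the shares over all tested peaks, 0.883% called lower and 32.9% higher. Among Fndc genes and matrix proteins with fibronectin type III repeats, 7 of 22 genes had a peak, and 0 of 37 tested peaks were called lower and 6 (16.2%) higher, with a median log2 fold change of 0.28 beside 0.35 for all peaks. The rises were in Fndc7 (1.52 and 1.23), Col12a1 (0.95, 0.93 and 0.71) and Fn1, fibronectin itself (0.69). Fn1 scored 99, 139 and 122 in Ctrl and 175, 181 and 224 in Kmt5b sKO, with separate groups. In the GRAF family 0 of 10 tested peaks were called lower and 2 (20.0%) higher, both in Arhgap42 (0.61 and 0.59), and the peak of Arhgap26 was below the level minimum.

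Among other RhoGAP genes, 2 of 163 tested peaks (1.23%) were called lower and 26 (16.0%) higher, with a median of 0.18. The share called lower was near that of all tested peaks, so it is no result about the list. The lower peaks were in Arhgap28 (−0.77, SE 0.27, limma adjusted p = 0.016) and in Arhgap24, a RhoGAP acting on Rac (−0.66, SE 0.19, limma adjusted p = 0.0031). Arhgap28 scored 62, 69 and 68 in Ctrl and 26, 49 and 44 in Kmt5b sKO. Arhgap24 scored 131, 178 and 127 in Ctrl and 86, 100 and 86 in Kmt5b sKO. Both peaks had separate groups. The largest rises were in Arhgap29 (1.37), Arhgap21 (1.15) and Arhgap40 (1.12).

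Of the kinases that bind the Arhgap10 protein, Ptk2 had 2 of 15 tested peaks called higher, fewer than the 32.9% of all tested peaks, and its summed score was 1221, 1330 and 1195 in Ctrl and 1628, 1650 and 1636 in Kmt5b sKO, with separate groups. Pak2 had 3 of 8 tested peaks called higher, the largest rise being 1.12 (SE 0.30). Pkn2, the gene of another kinase, had none of 4 tested peaks called, although its summed score was 3357, 3917 and 3280 in Ctrl and 2754, 2819 and 2722 in Kmt5b sKO, with separate groups. Over the 5 gene lists, of which the 3 above are described, 2 peaks were called lower and 52 higher on the deposited scale, and 36 and 7 after median centring. With quantile normalization they were 20 and 5. Over all tested peaks, median centring gave 3073 lower and 2647 higher, and quantile normalization 1988 and 2071.

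Markers of the cells present were read as R-loop signal and not as expression. Their calls stand beside the shares over all tested peaks, 0.883% called lower and 32.9% higher. MuSC and myoblast markers carried peaks in 7 of 12 genes, among them Pax7 and Myod1, with 0 of 31 tested peaks called lower and 3 (9.68%) higher, in Sdc4 (1.21 and 1.06) and Notch3 (0.73). Their summed score was 10262 to 12024 in Ctrl and 11849 to 12781 in Kmt5b sKO. Differentiating muscle markers carried peaks in 10 of 16 genes, and 10 of 66 tested peaks (15.2%) were called lower, all in Ttn, and 2 (3.03%) higher, in Ryr1 (0.98) and Neb (0.84). Their summed score was 17223, 27440 and 19788 in Ctrl and 17117, 17915 and 17377 in Kmt5b sKO, and without Ttn 9753 to 15853 and 11680 to 12356. Ctrl replicate 2 was the highest library here as it was in Fndc1, at 1.59 and 1.39 times the other Ctrl libraries. Fibroblast and fibro-adipogenic markers carried peaks in 2 of 15 genes, Col3a1 and Fbn1, with 2455 to 3007 in Ctrl and 2562 to 2704 in Kmt5b sKO and no called peak among 16. Pdgfra, Col1a1 and Dcn had no union peak. Endothelial markers summed to 240 to 256 in Ctrl and 399 to 494 in Kmt5b sKO over 3 of 10 genes. Of their 6 tested peaks 4 were called higher, in Tek (1.23), Flt1 (1.06 and 0.89) and Pecam1 (0.77). These 4 peaks were low, with Ctrl means of 30.7 to 53.0, and 6 peaks are too few to set against the share of all peaks. Smooth muscle and pericyte markers summed to 1251 to 1635 and 1378 to 1504 over 3 of 8 genes, with 1 of 8 peaks higher, in Cspg4 (1.08), and none of 8 leukocyte markers had a peak. Ttn fell along with Fndc1, and the differentiation markers varied with Fndc1 among the Ctrl libraries. Without Ttn, 0 of 46 tested peaks of the differentiation markers were called lower, and the groups of their summed scores overlapped. The other marker sets with peaks were also highest in replicate 2 among the Ctrl libraries. That library had the highest Ctrl total over all autosomal peaks as well, 1.21 times either of the others. MuSC and myoblast markers summed to 10753, 12024 and 10262 in Ctrl, and fibroblast markers to 2555, 3007 and 2455. Endothelial markers summed to 240, 256 and 248, and smooth muscle and pericyte markers to 1251, 1635 and 1271. The part of differentiating cells in the falls of Fndc1 and Arhgap10 was not tested.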

How the data were processed

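DRIP-seq of 3 Ctrl and 3 Kmt5b sKO S9.6 libraries was used; the 2 input libraries had no column of scores. Per the labels and methods, the authors trimmed reads with Trimmomatic 0.39, aligned them with STAR 2.7.3a to mm10 (GRCm38), removed duplicates with Picard 2.21.7, called peaks with Epic2 (SICER 0.0.41 in the processing notes), unified peaks over samples and summed the signal over each. The score deposited by the authors is scaled to Drosophila spike-in reads and rounded, so it is not a count and the DESeq2 test of the study was replaced by limma. Any error in a spike-in factor shifts all scores of a library.

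Autosomal peaks with a mean score over 30 (25815) were fitted with limma 3.58.1 (lmFit, eBayes with trend, R 4.3.3) on log2(score + 1), two-sided, with Benjamini-Hochberg adjustment. Fold changes on this scale understate changes of low peaks, and standard errors come from the trend of variance with score. The fit was tested on simulated data. Summed scores had no test. Gene models were from GENCODE vM21 and sequences from RefSeq GRCm38.

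Named were all member peaks, called and nearest flanking peaks, the 5 most similar genes, and called peaks of the gene lists described (at most 5 lower and 3 higher); 1 Arhgap10 peak was not tested. The other flanking peaks, Ptk2, Pak2, Pkn2, Fn1, the smaller Col12a1 rises and the called marker peaks were added after their values were seen. The separate results of 2 of the 5 gene lists are not reported here. The members and lists were chosen with earlier results of these data known. Alternatives were other pseudocounts, level filters, scalings, variance models and fold thresholds, X and Y, a replicate block, leaving out each library, a flank of 100 kb and membership by overlap with the annotated gene.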

Additional observations from a re-analysis of the deposited data

How the results depend on the processing

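The 9 called member peaks kept a negative log2 fold change under every alternative run. Peaks 2, 3 and 4 of Fndc1 and peak 21 of Arhgap10 were called lower under all alternatives in which they were tested, and no member was called higher under any. Of 498 fold changes of member peaks under alternatives, 12 lost a call, 23 gained one and 0 reversed a call. The called peaks of the gene and marker lists lost 295 of 1354 calls over the same alternatives, with 0 reversals.

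Where a level filter at a mean score over 100 left 2 Fndc1 peaks to test, both were called lower; it left 1 lower and 11 higher peaks over the 5 gene lists and 0 flanking peaks called higher. With a fold over 2, 1 Arhgap10 peak was called lower, and the lists had 0 lower and 11 higher. With no minimum fold, 1 flanking peak was called lower, and the lists had 13 and 93. Scaling to the same total called 1 flanking peak lower and gave the lists 11 lower and 25 higher, and the summed log2 ratio of Arhgap10 was −0.55. Median centring called 9 Arhgap10 peaks and 2 flanking peaks lower, gave the lists 36 and 7, and moved the summed log2 ratio to −1.51 in Fndc1 and −0.81 in Arhgap10. Quantile normalization called 9 Arhgap10 peaks and 2 flanking peaks lower and 0 flanking peaks higher, with 20 and 5 in the lists. Over all tested peaks the lower and higher calls were 3073 and 2647 with median centring and 1988 and 2071 with quantile normalization. They were 805 and 5579 with the same total, 15 and 3658 with a fold over 2, and 813 and 10830 with no minimum fold. The level filter at 100 gave 80 and 1163 among 9424 peaks. With the variance of each peak alone, the lists had 1 peak called lower. The cause of these moves was not tested, apart from the smaller set of peaks under the level filter and the thresholds themselves.

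Leaving out 1 library at a time gave 4 to 6 called Fndc1 peaks, 3 to 5 called Arhgap10 peaks, and 1 to 4 peaks called lower and 44 to 62 higher over the lists. The summed log2 ratio ranged from −1.23 to −0.84 in Fndc1 and from −0.44 to −0.22 in Arhgap10, with the smallest falls without Ctrl replicate 2. Membership by overlap with the annotated gene added the Nr3c2 peak to Arhgap10 and gave a summed log2 ratio of −0.37, and a flank of 100 kb held the same counts of called flanking peaks.

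Same-numbered libraries did not deviate together across peaks (correlations of −0.0094, 0.0108 and −0.0272), so no pairing by number was seen. An effect shared by all peaks of a library would not show in these correlations. With the replicate block, 5 Fndc1 peaks, 4 Arhgap10 peaks, 0 flanking peaks lower and 1 higher, and 2 lower and 52 higher list peaks were called, the same counts as without it. Read totals per library, lower in Kmt5b sKO, were not used here, and what depth limits at the low peaks was not tested.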
